A study of Homo sapiens with 19 samples.

Results

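The circadian clock genes described here are PER1, PER2, PER3, CRY1, CRY2, CLOCK, NR1D1, NR1D2 and DBP, 9 of the 20162 protein-coding genes to which ERRα peaks were assigned. They were chosen by name, with earlier results of these data known. A peak was assigned to a gene when its centre lay within 20 kb of any annotated transcript start of that gene on hg19 (GRCh37). ERRα chromatin immunoprecipitation with sequencing (ChIP-seq) had been done in SKBr3 and BT-474, established HER2-amplified human breast cancer cell lines. In both lines, cells starved of serum for 24 h received PBS vehicle, EGF (a ligand of EGFR) or heregulin (HRG, a ligand of HER3), each growth factor at 100 μM for 90 min. This concentration is given as the labels state it and is high for such ligands. The study further compared parental SKBr3 cells (pSKBr3), left untreated, with lapatinib-resistant SKBr3 cells (LRSKBr3), kept in 2 μM lapatinib, an inhibitor of EGFR and HER2. Only the resistant cells carried the drug, so resistance and drug exposure cannot be told apart in that pair.

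The 19 libraries comprised 13 ERRα ChIP and 6 input libraries, from which the authors had made 8 peak lists, 1 for each condition. Each list from SKBr3, pSKBr3 or LRSKBr3 cells pools 2 ChIP libraries with 1 input, whereas each BT-474 list rests on 1 ChIP library and all BT-474 lists share the vehicle input. With 1 list per condition there is no spread between replicates, so no difference below was tested and no error can be attached to a value. The lists contain no read counts and their depth is unknown, which means that a peak missing from a list shows only that no peak was called there. They hold between 22539 (pSKBr3) and 41271 (BT-474 on HRG) peaks, with median widths of 1188 to 2012 bp. The score of a peak, 10 times the negative log10 of its P value, depends on depth. It is therefore given mainly as a percentile, the percentage of peaks in the same list with a lower score, to which tied peaks add by equal parts above and below. At ESRRA, which encodes ERRα itself and which the paper names as a known ERRα target, every list had a peak, with a best percentile of 98.3 to 98.9. The best score was 3100.00 in each list. A peak there does not show which protein the antibody bound.

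The mammalian clock is a transcriptional feedback loop. CLOCK pairs with BMAL1 on E-box DNA and activates the PER and CRY genes, whose proteins return to the nucleus and repress that pair. A second loop is formed by the nuclear receptors REV-ERBα (NR1D1) and REV-ERBβ (NR1D2), which repress BMAL1 in competition with the ROR receptors, and DBP is an output factor that acts through D-box elements. ERRα is an orphan nuclear receptor and a regulator of mitochondrial energy metabolism, and it binds an extended AGGTCA element (ERRE) closely related to that of the REV-ERB and ROR receptors.

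ERRα peaks lay near 8 of the 9 clock genes in at least 1 list, and only PER1 had a peak in all 8. PER3 had none. DBP was called in 6 lists, CRY1 in 4, NR1D1 and NR1D2 in 3 each, PER2 and CLOCK in 2 each, and CRY2 in 1. Over all protein-coding genes, 26.8% had a peak in every list and 15.3% in no list. The 58 peaks near the clock genes merge into 23 sites, of which 11 had a peak centred in range in a single list.

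**Figure D1:**
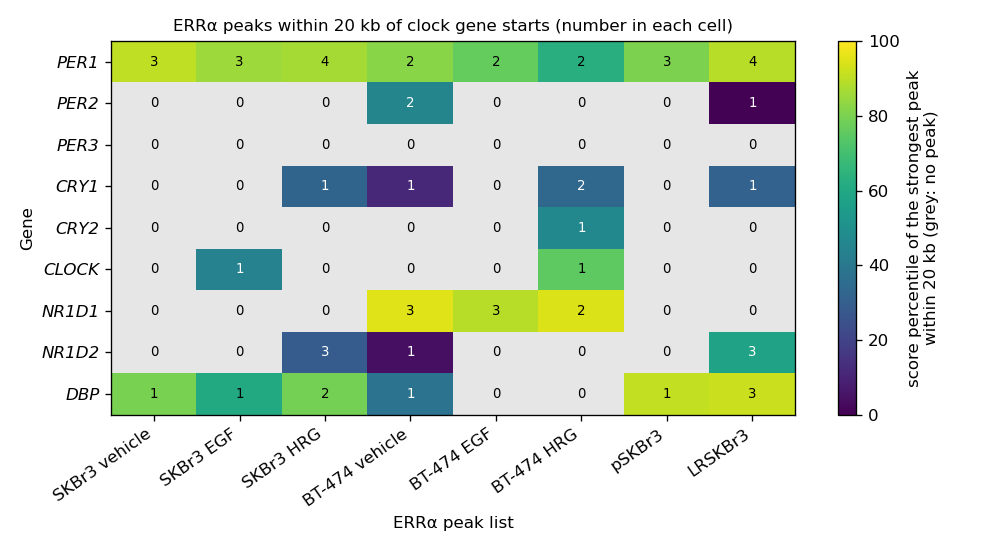
Number of ERRα peaks within 20 kb of a transcript start of each clock gene (rows) in each of the 8 lists (columns), with colour giving the score percentile of the strongest of them and grey standing for no peak. PER1 is filled in all 8 columns, NR1D1 in the 3 BT-474 columns and PER3 in none.

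The number of clock genes with a peak is given for each list with the share of all genes beside it. With 9 genes these shares move in large steps, and their differences from all genes were not tested. In SKBr3 cells, 2 of the 9 genes had a peak on vehicle (54.1% of all genes), 3 on EGF (56.3% of all genes) and 4 on HRG (66.4% of all genes). In BT-474 cells, 6 had a peak on vehicle (53.0% of all genes), 2 on EGF (42.3% of all genes) and 5 on HRG (55.3% of all genes). In pSKBr3 cells the count was 2 (57.1% of all genes) and in LRSKBr3 cells 5 (69.9% of all genes). The share of clock genes was 66.7% in BT-474 cells on vehicle and 55.6% both in BT-474 cells on HRG and in LRSKBr3 cells. Within 10 kb these lists were tied at 5 genes each, and with P at most 1e-10 both BT-474 lists held 4. A gene with many annotated starts covers more sequence: PER1 has 19 start positions, NR1D1 has 1, and the median gene has 5.

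**Figure D2:**
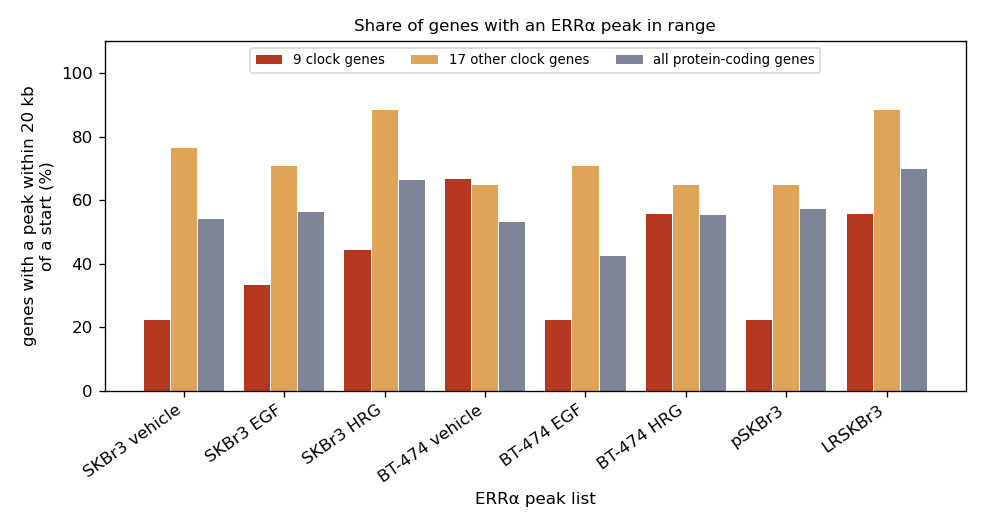
Percentage of genes with an ERRα peak within 20 kb of a start (vertical axis) in each list, for the 9 clock genes, the 17 other clock genes and all 20162 protein-coding genes. The clock genes lie below all genes in 6 lists, and the other clock genes lie above all genes in every list.

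Sequences under recurrent or high-scoring peaks near these genes, and under weaker peaks that hold clock or AP-1 words, are given because they place the words searched for beside the peak centres. Words were sought on both strands of GRCh37. For ERRα these were the ERRE, TCAAGGTCA, and its shorter core, AAGGTCA. Every full ERRE also contains the core and is counted for both. AP-1 was sought as TGACTCA and, as an equivalent spelling, TGAGTCA. The clock elements were the E-box CACGTG bound by CLOCK with BMAL1, the core TAGGTCA of a ROR and REV-ERB element, and the D-box TTATGTAA. Capitals mark the words. The upstream PER1 site called in all 8 lists is chr17:8062274-8062338 on the plus strand, in an intron of the overlapping gene ENSG00000263620. The weaker intronic PER1 site of LRSKBr3 cells, chr17:8055853-8055932 on the plus strand, holds the ERRE core and an E-box. A full ERRE lies in a UTR of VAMP2, chr17:8065847-8065875 on the minus strand. The sites upstream of NR1D1 in BT-474 cells are intergenic and comprise chr17:38259485-38259551 (minus strand, ERRE), chr17:38257546-38257610 (plus strand, AP-1) and chr17:38268606-38268670 (minus strand, AAGGTCA). The NR1D1 ERRE lay within 100 bp of a peak centre on vehicle and EGF, and the AP-1 word on EGF alone. The distal AAGGTCA did so on EGF and HRG. On vehicle the distal peak instead had TAGGTCA within 100 bp of its centre, a stretch not printed below. Within NR1D2, intronic AP-1 words lie in chr3:23989041-23989137, which also holds an E-box, and in chr3:24001015-24001079, both on the plus strand. The recurrent CRY1 site carries a D-box in an intron, chr12:107450907-107450972 on the minus strand, and the CLOCK site carries an ERRE reaching a coding exon, chr4:56304661-56304727 on the minus strand. A match is a description of the letters and not evidence of occupancy by any factor.
PER1 upstream site, AAGGTCA: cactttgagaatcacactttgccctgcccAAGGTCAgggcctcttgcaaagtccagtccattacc
PER1 intronic site, AAGGTCA and E-box: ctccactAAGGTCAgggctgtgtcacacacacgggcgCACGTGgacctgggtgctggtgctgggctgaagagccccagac
PER1 site in VAMP2, ERRE: ggggcctcgcTCAAGGTCAcgcagctcat
NR1D1 proximal site, ERRE: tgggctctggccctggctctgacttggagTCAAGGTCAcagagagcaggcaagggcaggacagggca
NR1D1 proximal site, AP-1: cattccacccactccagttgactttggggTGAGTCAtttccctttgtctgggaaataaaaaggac
NR1D1 distal site, AAGGTCA: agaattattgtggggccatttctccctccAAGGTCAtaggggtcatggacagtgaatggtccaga
NR1D2 first intronic site, AP-1 and E-box: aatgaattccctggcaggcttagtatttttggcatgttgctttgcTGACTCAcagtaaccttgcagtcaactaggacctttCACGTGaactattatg
NR1D2 second intronic site, AP-1: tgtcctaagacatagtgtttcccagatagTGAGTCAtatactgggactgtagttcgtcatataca
CRY1 intronic site, D-box: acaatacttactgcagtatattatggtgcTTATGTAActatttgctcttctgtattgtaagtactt
CLOCK site, ERRE: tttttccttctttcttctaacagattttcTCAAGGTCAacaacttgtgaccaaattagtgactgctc

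Within 100 bp of the peak centre, the clock gene peaks held these words at shares that can be set beside those of all 264623 peaks. AAGGTCA was found in 16 of the 58 peaks (27.6%, against 23.6% of all peaks) and the full ERRE in 5 (8.62%, against 6.75%). AP-1 words were in 5 (8.62%, against 7.59%). For these words the order turned in a wider window: within 250 bp, AAGGTCA was in 18 of the 58 clock gene peaks, a lower share than the 37.2% of all peaks, the ERRE in 8.62% against 10.4% and AP-1 in 10.3% against 15.6%. The clock elements were rare in both sets, with an E-box in 3 peaks (5.17%, against 2.42%), a D-box in 3 (5.17%, against 1.17%) and TAGGTCA in 2 (3.45%, against 2.75%). The peaks share sequence, since 8 of the 16 AAGGTCA matches are the PER1 upstream word counted once per list and the 3 D-box matches are 1 CRY1 site.

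CLOCK, the DNA-binding activator of the loop, had a peak in 2 lists. Both belong to a site at chr4:56303302-56305916, near an internal start and over 100 kb from the start of the gene, where CLOCK overlaps an intron of TMEM165. In SKBr3 cells the site appeared on EGF, at percentile 44.5 (score 129.47), and on neither vehicle nor HRG. In BT-474 cells it appeared on HRG alone, at percentile 75.2 (score 378.56), with the ERRE shown above within 100 bp of the centre. In each line the site was thus called on 1 growth factor and not on vehicle, but the growth factor differed.

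PER1 is a repressor of the loop whose gene also responds acutely to many signals. Among the 9 clock genes, it held the only site called under every condition. This site, chr17:8061296-8063181, is centred about 2.4 to 2.5 kb upstream of the PER1 start. In SKBr3 cells its score percentile was 90.4 on vehicle, 85.2 on EGF and 86.6 on HRG. In BT-474 cells it was 82.3 on vehicle, 76.5 on EGF and 62.7 on HRG. It was 80.1 in pSKBr3 and 89.4 in LRSKBr3 cells. The site ranked above the middle of each list and lowest in BT-474 cells on HRG, and the AAGGTCA shown above lay within 100 bp of the centre in all 8 lists.

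A second PER1-associated site, chr17:8075713-8077658, was called in 7 lists and missing only in SKBr3 cells on HRG. It lies about 17 kb upstream, in the UTR of TMEM107, whose start is nearer. Its percentile was 70.0 on vehicle and 76.1 on EGF in SKBr3 cells, 54.6 in pSKBr3 cells and 64.4 in LRSKBr3 cells. In BT-474 cells it was 36.9 on vehicle, 2.7 on EGF and 3.8 on HRG, near the bottom of the lists. The other 5 PER1 sites were called in 1 or 2 lists each, all from SKBr3-derived cells. They reached percentiles of up to 43.3, and the sites 5982 bp and 7753 bp upstream have the start of VAMP2 as the nearest. The VAMP2 site (chr17:8065336-8066312, in SKBr3 cells on HRG and in pSKBr3 cells) holds the full ERRE given above within 100 bp of both centres, and its peaks were at percentiles 9.6 and 15.9.

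PER2, the paralogue that with PER1 carries most of the repressor function, was called in BT-474 cells on vehicle and in LRSKBr3 cells. BT-474 cells on vehicle had 1 peak in a PER2 intron at percentile 10.3 and 1 beyond the 3′ end of the gene at percentile 45.4. The latter is centred 19726 bp from the nearest PER2 start, just inside the 20 kb limit, and has HES6 as its nearest gene. An overlapping peak on HRG, centred 20470 bp from the start, fell just outside the limit. LRSKBr3 cells had 1 peak 1778 bp upstream, at percentile 0.5 and a score of 50.52, close to the lowest score a list can hold. For PER3, the least essential of the 3 paralogues, the nearest peak was 48347 bp (SKBr3 on HRG) to 183840 bp (BT-474 on EGF) from a start.

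The cryptochromes, partners of the PER proteins and potent repressors of CLOCK–BMAL1, had peaks of middle to low rank. At CRY1 an intronic site (chr12:107449612-107451896), near an internal start and about 36 kb inside the gene, was called in 4 lists. Its percentile was 32.1 in SKBr3 cells on HRG, 11.7 in BT-474 cells on vehicle, 24.1 in BT-474 cells on HRG and 31.3 in LRSKBr3 cells. It was thus missing on EGF in both lines, on vehicle in SKBr3 cells and in pSKBr3 cells. A CRY1 peak near the gene start (1276 bp, percentile 33.8) and the only CRY2 peak (1036 bp, percentile 46.5) were both called in BT-474 cells on HRG.

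NR1D1, which encodes REV-ERBα, had the highest-ranking peaks among the 9 clock genes, and all NR1D1 peaks came from BT-474 cells. Next to the start, BT-474 cells on vehicle had peaks centred 637 bp (percentile 64.3) and 2668 bp (percentile 59.0) upstream. On EGF the corresponding peaks were at percentiles 69.4 and 68.6. On HRG, 1 peak of 3999 bp at percentile 94.0 (score 1696.98) spanned both positions. The values of the HRG peak and of the separate peaks describe intervals of different width.

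The distal NR1D1 site, chr17:38266962-38270970, about 12 kb upstream and nearest to the start of MSL1, was also called in all 3 BT-474 lists. Its percentile was 95.1 on vehicle (score 2197.94), 89.4 on EGF (score 746.89) and 94.8 on HRG (score 1918.89). It outranked the proximal peaks on vehicle and EGF, and was close to them on HRG.

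NR1D1 had no peak in range in any list from SKBr3, pSKBr3 or LRSKBr3 cells, and the surrounding region separated these lists further. Within 500 kb of the NR1D1 start there was 1 peak in SKBr3 cells on vehicle, 1 on EGF and 0 on HRG, whereas there were 15 in pSKBr3 and 18 in LRSKBr3 cells. BT-474 cells had 15 on vehicle, 11 on EGF and 12 on HRG. At most 1 peak within 500 kb is uncommon, holding for 5.84%, 4.94% and 4.47% of all genes in the SKBr3 vehicle, EGF and HRG lists. NR1D1 lies near ERBB2, the gene for HER2, which is amplified in both cell lines, and copy number was not analysed here.

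**Figure D3:**
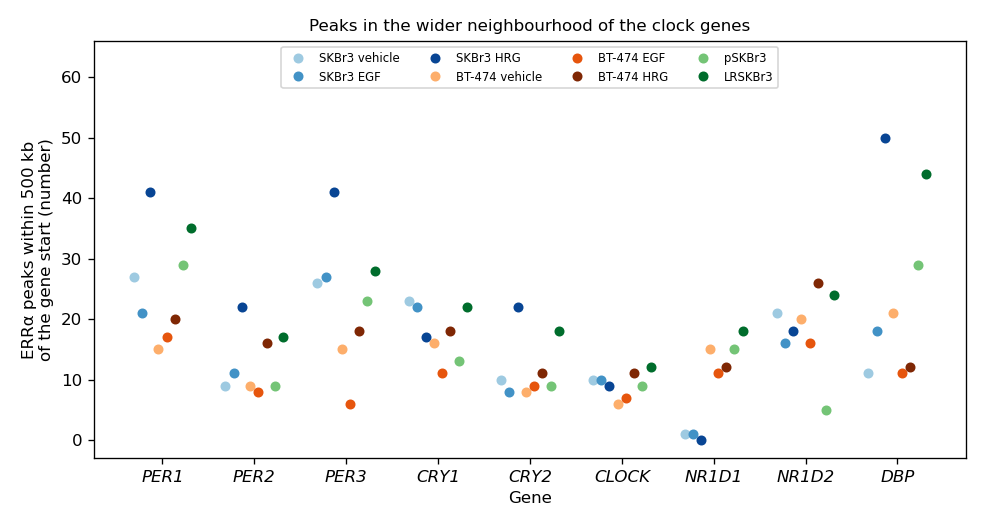
Number of ERRα peaks within 500 kb of the start of each clock gene (vertical axis), with 1 point per list. At NR1D1 the starved SKBr3 lists hold 0 or 1 peak, against 11 to 18 in the other 5 lists.

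NR1D2, which encodes REV-ERBβ, had peaks in SKBr3 cells on HRG, BT-474 cells on vehicle and LRSKBr3 cells. In SKBr3 cells on HRG there were 3 peaks, at percentiles 29.1, 11.7 and 22.4, and none on vehicle or EGF. LRSKBr3 cells also had 3, at percentiles 19.2, 57.8 and 29.6, and pSKBr3 cells none. The direction was opposite in BT-474 cells, where the single NR1D2 peak was on vehicle, at percentile 4.0, and none was called on either growth factor. Both the SKBr3 HRG peaks and this BT-474 peak were weak, and with P at most 1e-10 or lists of equal size NR1D2 had none of them, so that HRG less vehicle was 0 in both lines. The strongest NR1D2 peak, in LRSKBr3 cells (score 197.94), overlaps the start region shared with NKIRAS1, a neighbour whose start is the nearer for 3 of these peaks.

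DBP, the D-box-binding output factor, had a recurrent peak in 6 lists at the start of the neighbouring SPHK2, chr19:49121907-49123879, about 15 kb from the nearest DBP start. Its percentile was 79.9 on vehicle, 60.9 on EGF and 79.1 on HRG in SKBr3 cells. It was 90.7 in pSKBr3 and 92.1 in LRSKBr3 cells. In BT-474 cells it was 38.0 on vehicle, and no peak was called on EGF or HRG. The site thus ranked highest in pSKBr3 and LRSKBr3 cells and lowest in BT-474 cells.

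Peaks within 2 kb of a DBP start were called only in LRSKBr3 cells. The closest, at percentile 47.9 and 24 bp from an internal DBP start, holds an E-box, and the other (percentile 25.7) lies 1102 bp upstream, in CA11. SKBr3 cells on HRG had a further peak 8870 bp upstream at percentile 47.3, with the start of CA11 as the nearest. Of all 23 clock gene sites, 14 have a start of the clock gene itself as the nearest, and the others could equally be listed under their neighbours.

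**Figure D4:**
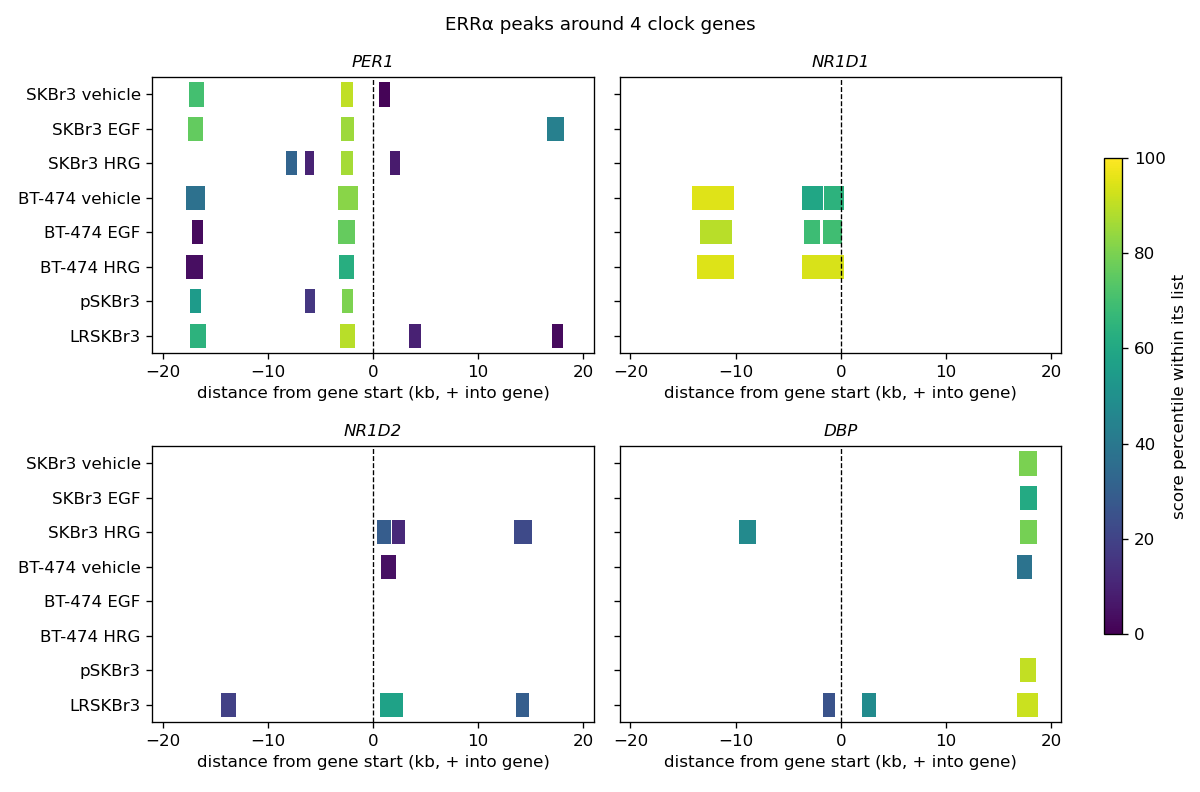
ERRα peaks around PER1, NR1D1, NR1D2 and DBP in the 8 lists, drawn to scale by distance from the annotated gene start in kb, positive into the gene, and coloured by score percentile within the list. The PER1 upstream peak is present in every row, and the NR1D1 peaks occupy the 3 BT-474 rows only.

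To ask how growth factors changed ERRα recruitment near clock genes, peaks with no overlap of at least 1 bp in the vehicle list of the same line were counted as gained, and vehicle peaks with no partner as lost. The EGF and HRG comparisons share the vehicle list. In SKBr3 cells on HRG, 7 of 10 peaks were gained, near PER1, CRY1, NR1D2 and DBP (51.8% of all gene-associated peaks), and 1 of 4 was lost, near PER1 (31.1% of all gene-associated peaks). On EGF, 2 of 5 were gained, near PER1 and CLOCK (30.0% of all), and 1 of 4 was lost, near PER1 (25.7% of all). The gains on HRG were mostly weak peaks: only the DBP peak, 1 of 3, was left when peaks had to reach P at most 1e-10 (49.9% of all).

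In BT-474 cells peaks near clock genes were lost on EGF without gains, and both lost and gained on HRG. On EGF, 0 of 5 peaks were gained (16.5% of all gene-associated peaks) and 5 of 10 were lost, near PER2, CRY1, NR1D2 and DBP (39.1% of all). On HRG, 3 of 8 were gained, near CRY1, CRY2 and CLOCK (31.7% of all), and 3 of 10 were lost, near PER2, NR1D2 and DBP (20.3% of all). Over all genes, 5639 peaks were gained and 3082 lost on HRG, and within 10 kb the clock gene counts were 3 gained and 2 lost. The PER1 upstream and NR1D1 sites were called on vehicle and on both growth factors. The BT-474 EGF list is the shortest of that line, with 26832 peaks against 32259 on vehicle. With all lists cut to 22539 peaks by score, 3 of 7 vehicle peaks were lost on EGF, near PER1, PER2 and DBP (27.9% of all), so the loss near PER1 was new and those near CRY1 and NR1D2 were no longer counted.

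Lapatinib resistance was examined by comparing LRSKBr3 with pSKBr3 cells. Near the clock genes 9 of 12 LRSKBr3 peaks had no pSKBr3 partner, of which 3 were near NR1D2, 2 near PER1, 2 near DBP, 1 near PER2 and 1 near CRY1 (48.5% of all gene-associated peaks). In the other direction 1 of 4 pSKBr3 peaks had no LRSKBr3 partner, the VAMP2 site near PER1 (8.63% of all). The LRSKBr3 list holds 39777 peaks and the pSKBr3 list 22539. With LRSKBr3 cut to the size of the pSKBr3 list by score, 2 of 5 peaks were gained, near NR1D2 and DBP (26.4% of all gene-associated peaks), and with P at most 1e-10 the count was again 2 of 5 (48.7% of all). Lost peaks were 1 of 4 with lists of equal size (21.6% of all) and 0 of 3 with P at most 1e-10 (5.84% of all).

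SKBr3 and BT-474 cells were also compared under the same treatment. On vehicle, 7 of 10 BT-474 peaks had no SKBr3 partner, near PER2, CRY1, NR1D1 and NR1D2 (48.1% of all gene-associated peaks), against 1 of 4 SKBr3 peaks without a BT-474 partner, near PER1 (48.9% of all). On EGF, 3 of 5 BT-474 peaks were without a partner, all of them near NR1D1 (44.7% of all), as were 3 of 5 SKBr3 peaks, near PER1, CLOCK and DBP (62.2% of all). On HRG the counts were 6 of 8 BT-474 peaks (53.2% of all) and 8 of 10 SKBr3 peaks, near PER1, NR1D2 and DBP (62.3% of all). Of the 6 shares, 4 were above that of all peaks, that of SKBr3 on EGF was close to it and that of SKBr3 on vehicle was below it. With P at most 1e-10, or with lists of equal size, the vehicle count for BT-474 was 4 of 7, without CRY1 and NR1D2 (48.9% and 47.0% of all peaks under these settings). On EGF the counts were then 3 of 4 for BT-474 (41.7% and 48.7% of all) and 4 of 5 for SKBr3 (64.1% and 57.6% of all). On HRG the counts were then 4 of 5 for BT-474 (51.9% and 50.3% of all). For SKBr3 they were 2 of 3, near DBP alone (62.8% and 63.9% of all). The NR1D1 peaks were without an SKBr3 partner in each of these comparisons. BT-474 peaks are wider and rest on a single ChIP library, so line and library design cannot be told apart.

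The remaining clock genes were described by a list of 17 with known roles in the loops. Between 11 (BT-474 on vehicle and on HRG, and pSKBr3) and 15 (SKBr3 on HRG and LRSKBr3) of them had a peak, where the lists ranged from 42.3% to 69.9% of all genes. In every list 8 of the 17 had one, as did 26.8% of all genes. BMAL1 (ARNTL), the partner of CLOCK, was called in all 8 lists at best percentiles of 78.8 to 93.7, against 2 lists for CLOCK. The range searched differs, since ARNTL has 23 start positions and CLOCK has 11. Among the 17, the genes called in every list have from 2 (BHLHE40) to 24 (CSNK1D). RORA, the activating counterpart of the REV-ERB receptors, was called in all 8 at 88.9 to 93.7. These RORA peaks lay 2481 to 2992 bp from an internal start. Within 100 kb of the RORA gene start, no list from SKBr3, pSKBr3 or LRSKBr3 cells had a peak. TEF, a D-box factor related to DBP, was called in all 8 at 93.6 to 98.6. CSNK1D and CSNK1E, the kinases that phosphorylate PER proteins, reached 77.5 to 98.6 and 69.1 to 98.7.

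**Figure D5:**
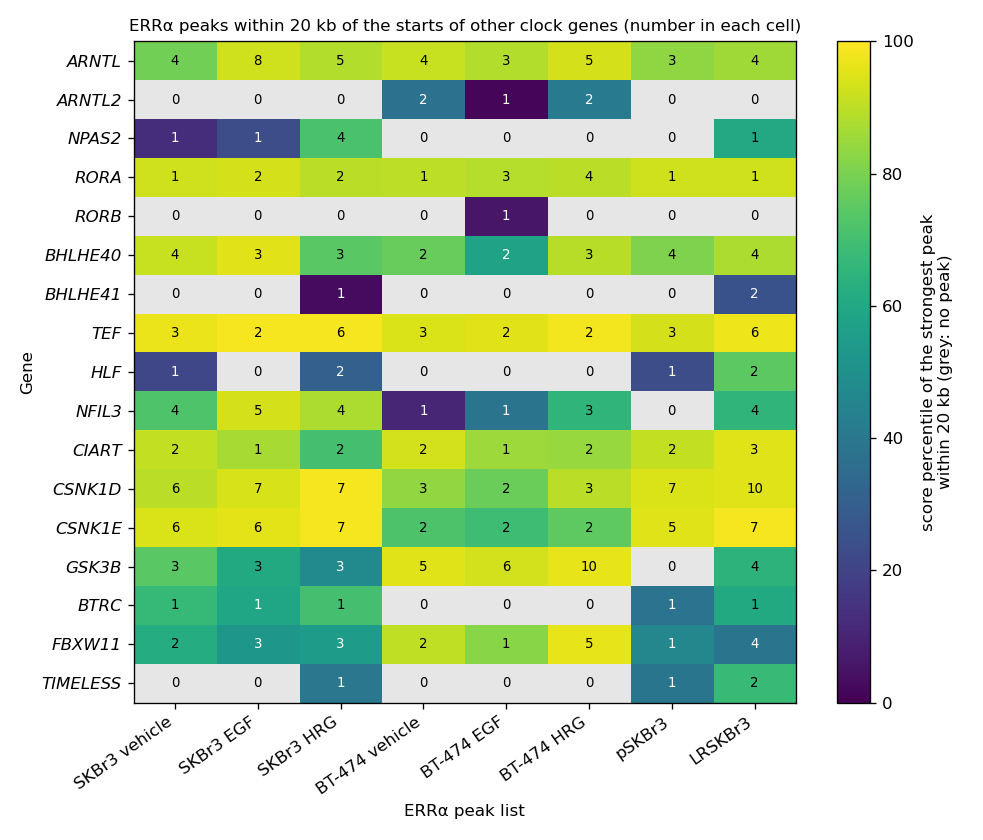
Number of ERRα peaks within 20 kb of a start of 17 other clock genes (rows) in the 8 lists (columns), with colour giving the best score percentile and grey standing for no peak. ARNTL, RORA, BHLHE40, TEF, CIART, CSNK1D, CSNK1E and FBXW11 are filled in all 8 columns.

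CIART, BHLHE40 (repressors of CLOCK–BMAL1) and FBXW11 (a ubiquitin ligase subunit for PER proteins) were called in every list. NFIL3 (a repressor at D-boxes) and GSK3B (a kinase) were called in 7, and BTRC in 5. NPAS2, the paralogue of CLOCK, and HLF were called in 4, ARNTL2 and TIMELESS in 3, BHLHE41 in 2 and RORB in 1. ARNTL2 was called in the 3 BT-474 lists only, as was NR1D1, and BTRC in the 5 lists of SKBr3-derived cells only.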

How the data were processed

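ERRα ChIP-seq and input libraries were analysed through the 8 BED peak lists that the authors deposited. The authors aligned the reads to hg19, for which the submitters' processing notes name BWA 0.5.9 and SAMtools 0.1.18, and called peaks with MACS against input at a P value cutoff of 1e-05. The deposited score is 10 times the negative log10 of the MACS P value of a peak, and replicates had been pooled before peak calling. BED starts were shifted to 1-based positions. Peak centres were compared with all transcript starts of protein-coding genes in GENCODE 44 lifted to GRCh37, and words were searched within 100 bp of the centre (201 bp in all). Scores were converted to percentiles within a list, ties counting by equal parts. Peaks of 2 lists overlapping by at least 1 bp were shared, and overlapping member peaks were merged into sites. The named genes are the 9 clock genes, 17 further clock genes, ESRRA, genes with a nearer start or a body at a member peak, and, for NR1D1 and DBP (the widest ranges of best percentile), the 2 genes elsewhere with the smallest mean absolute difference in percentile. A further 2 genes of this wider list are not reported here. Genes and lists were chosen with earlier results of these data known. Alternatives concerned the distance (10 kb, 1 kb), P at most 1e-10, the gene start alone, lists of equal size, the overlap rule and the word window, with shares over all genes and peaks recomputed under each. The distance, overlap and word rules each recovered 2000 of 2000 simulated cases. Python 3.11.15, numpy 2.4.6 and matplotlib 3.10.9 were used. The lists give no read depth, so no interval or floor for a missing peak can be given.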

Additional observations from a re-analysis of the deposited data

Results flagged for a closer look

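At NR1D2 the number of peaks in range moved in opposite directions on HRG in the lines. HRG less vehicle was 3 in SKBr3 cells and -1 in BT-474 cells. At DBP the same difference was 1 in SKBr3 cells and -1 in BT-474 cells. These rest on 1 list per condition, and the difference between the lines was not tested. A higher number in SKBr3 and a lower one in BT-474 cells on HRG was seen for 7.36% of all protein-coding genes. With P at most 1e-10 or lists of equal size, the NR1D2 difference was 0 in both lines, whereas those of DBP stayed at 1 and -1. The share of all genes was then 4.91% and 5.70%. Within 10 kb the DBP difference was 1 in SKBr3 and 0 in BT-474 cells (4.77% of all genes). Within 1 kb it was 0 in both lines (1.79% of all genes). The NR1D2 differences were 3 and -1 within 10 kb, and 1 and -1 within 1 kb. At DBP the SKBr3 gain and the BT-474 loss were at different sites, near the starts of CA11 and SPHK2.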

How the results depend on the processing

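Counts stayed within 1.5 times the reported value in 107 of the 164 recomputed settings, and 46 of the 57 that moved were lower. No paired analysis was possible because the deposited lists pool the replicates and no result comes from a test. Leaving out a replicate could not be run for the same reason. Fewer peaks or a shorter range can only remove peaks of the genes, and where a count rose or partners changed the cause was not tested. Percentages in parentheses are the shares of all genes or of all gene-associated peaks under the same setting.

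With starts within 1 kb, the genes with a peak numbered 1 in SKBr3 on vehicle (23.3%), 0 on EGF (22.3%) and 1 on HRG (35.7%), 2 in BT-474 on vehicle (19.4%), 1 on EGF (11.4%) and 0 on HRG (16.8%), 0 in pSKBr3 (31.4%) and 3 in LRSKBr3 (41.7%). Gained peaks were then 0 of 0 in SKBr3 on EGF, 1 of 1 in SKBr3 on HRG (48.5%), 0 of 0 in BT-474 on HRG, 3 of 3 in LRSKBr3 (36.1%) and, for BT-474 against SKBr3, 2 of 2 on vehicle (34.6%), 1 of 1 on EGF (26.6%) and 0 of 0 on HRG. Lost peaks were 0 of 1 in SKBr3 on HRG (17.6%), 1 of 2 in BT-474 on EGF (45.3%), 1 of 2 in BT-474 on HRG (27.0%), 0 of 0 in LRSKBr3 and, for BT-474 against SKBr3, 0 of 0 on EGF and 1 of 1 on HRG (65.4%). Within 10 kb, 1 gene had a peak in SKBr3 on vehicle (43.8%) and 1 in pSKBr3 (47.9%), 3 of 6 peaks were lost in BT-474 on EGF (39.8%) and 0 of 2 in SKBr3 on HRG (28.5%).

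With P at most 1e-10, and equally with lists of 22539 peaks (second share), 2 genes had a peak in SKBr3 on HRG (55.3% and 53.9%) and 3 in LRSKBr3 (60.2% and 55.8%). Gained peaks were 1 of 3 in SKBr3 on HRG (49.9% and 45.4%), 2 of 5 in LRSKBr3 (48.7% and 26.4%) and 4 of 7 in BT-474 against SKBr3 on vehicle (48.9% and 47.0%). Lost peaks were 3 of 7 in BT-474 on EGF (40.2% and 27.9%), 0 of 3 in SKBr3 on EGF (24.2% and 26.0%) and, for BT-474 against SKBr3, 0 of 3 on vehicle (47.8% and 49.7%) and 2 of 3 on HRG (62.8% and 63.9%). With P at most 1e-10 alone, 0 of 3 were lost in LRSKBr3 (5.84%). With the gene start alone, 1 of 4 peaks was gained in SKBr3 on EGF (28.4%) and 3 of 8 were lost in BT-474 on EGF (40.4%).

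Where 50% of both peaks had to overlap, 5 of 10 peaks were lost in BT-474 on HRG (23.1%) and 2 of 4 in SKBr3 on HRG (37.2%), and with centres within 500 bp these were 6 (29.1%) and 2 (40.7%). In BT-474 on HRG, 4 of 8 peaks were gained under these rules (34.4% and 39.5%). NR1D1 was then counted among both the gained and the lost genes. With words sought in the whole peak, AAGGTCA was in 28 peaks (48.3%, against 57.8% of all peaks), AP-1 in 17 (29.3%, against 35.2%), the E-box in 16 (27.6%, against 19.3%), TAGGTCA in 12 (20.7%, against 17.0%) and the D-box in 7 (12.1%, against 10.6%). The ERRE was in 12.1%, against 15.3%. Within 250 bp of the centre, the E-box was in 4 (6.90%, against 6.03%), TAGGTCA in 8 (13.8%, against 5.97%) and the D-box in 5 (8.62%, against 2.94%). A site is counted once per list here too. Within 250 bp these peaks come from 4 sites for the E-box, 3 for TAGGTCA and 2 for the D-box. The missing depth limits every absence.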

Other observations

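Among protein-coding genes on other chromosomes or more than 1 Mb away, C18orf21 and NBN had the profiles of best percentile most like that of NR1D1, with mean absolute differences of 0.464 and 0.561 percentile points over the 8 lists. Both were called in the BT-474 lists only, C18orf21 at 95.2 on vehicle, 92.5 on EGF and 94.2 on HRG. The same presence and absence over the lists as NR1D1 was seen for 426 of 20162 genes (2.11%). RNF225 (0.820 points) and DELE1 (2.43 points) were most like DBP, and both were without a peak in BT-474 cells on EGF and HRG. The pattern of DBP over the lists was shared by 437 genes (2.17%). The choice of these genes follows from the likeness, which is therefore a description.

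GC content within 100 bp of the centre ranged from 24.9% to 72.6% over the 58 clock gene peaks, with a median of 50.7%. The medians of whole lists ran from 39.3% (BT-474 on EGF and on HRG) to 51.7% (pSKBr3).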
